A study of Mus musculus with 2 samples.

Results

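The NF-kappaB (NF-κB) system was followed here through 10 of its genes: the 5 genes of the transcription factor itself (Nfkb1, Nfkb2, Rel, Rela and Relb), 3 genes of the inhibitor (IκB) family (Nfkbia, Nfkbiz and Bcl3), and the feedback regulators Tnfaip3 and Birc3. They were taken by symbol from a table of 31054 genes, and their unique molecular identifiers (UMIs, a count of captured RNA molecules) were read in single cells of mouse gonadal white adipose tissue (gWAT). The mice were 18-month-old males of the genotype p16-CreERT2/R26-LSL-tdTomato that had received tamoxifen, so that the Cre made under control of p16 could turn on the red reporter tdTomato. Cells negative for CD31 and CD45, markers of endothelial and blood cells, were sorted by the reporter into Tom+ and Tom- cells, and 1 droplet library was made of each. Genotype, tamoxifen, tissue and the CD31- CD45- gate were therefore common to both groups, and the number of mice behind each library was not given in the sources used here. With 1 library per group there was no replicate, so no test or p-value could be given, and a difference between Tom+ and Tom- cells cannot be told apart from a difference between the preparations.

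NF-κB factors are pairs of Rel-family proteins that are kept in the cytoplasm by IκB proteins until a receptor of the tumour necrosis factor, interleukin 1 or Toll-like family activates the IκB kinase. The freed factor enters the nucleus and switches on cytokine, chemokine and survival genes, and also the genes of its own inhibitors, which end the signal. Stromal cells of adipose tissue use this pathway to make chemokines, and aged or senescent cells are known for NF-κB-driven secretion.

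Feedback of this kind works through NF-κB sites in the promoters of the induced genes. The sequence before the start is shown for 4 members that held a match to such a site. The RefSeq promoter table (GRCm38.p6) held 7 of the 10 members, from 250 bases before to 50 bases after the start, and had no entry for Nfkb1, Nfkbiz and Relb. The 10-base κB consensus was searched on both strands, and overlapping matches were kept. A match was found for 5 of these 7 genes (Nfkbia, Rel, Nfkb2, Tnfaip3 and Bcl3) and for 9.55% of the 27025 genes of the table, or 8.46% of its 32851 promoters. Birc3 and Rela had no match in this window. The runs below are the 250 bases before the start, read 5′ to 3′ on the gene's strand, with matches in capitals.
Nfkbia: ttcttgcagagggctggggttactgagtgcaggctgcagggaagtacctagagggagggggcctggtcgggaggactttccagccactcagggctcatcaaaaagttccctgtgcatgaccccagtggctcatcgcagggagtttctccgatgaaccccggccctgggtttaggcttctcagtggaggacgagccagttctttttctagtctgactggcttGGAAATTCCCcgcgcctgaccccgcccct
Rel: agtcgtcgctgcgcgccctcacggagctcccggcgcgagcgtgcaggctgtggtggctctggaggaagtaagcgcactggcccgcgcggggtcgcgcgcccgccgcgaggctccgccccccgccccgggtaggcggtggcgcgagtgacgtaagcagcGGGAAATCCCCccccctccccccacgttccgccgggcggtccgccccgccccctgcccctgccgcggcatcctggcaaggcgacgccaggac
Nfkb2: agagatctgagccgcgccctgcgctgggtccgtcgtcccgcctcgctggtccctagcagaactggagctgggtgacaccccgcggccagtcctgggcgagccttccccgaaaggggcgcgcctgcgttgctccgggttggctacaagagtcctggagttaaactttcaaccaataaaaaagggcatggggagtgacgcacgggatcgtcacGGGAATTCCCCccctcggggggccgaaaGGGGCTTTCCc
Tnfaip3: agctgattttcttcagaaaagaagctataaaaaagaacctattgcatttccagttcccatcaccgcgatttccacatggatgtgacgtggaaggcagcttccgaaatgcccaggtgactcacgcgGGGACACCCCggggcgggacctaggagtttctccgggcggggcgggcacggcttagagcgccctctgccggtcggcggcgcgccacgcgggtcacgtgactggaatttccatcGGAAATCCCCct
The Nfkbia run is chr12:55492648-55492897 on the minus strand, and its match begins 29 bases before the start. For Rel (chr11:23770970-23771219, minus strand) overlapping matches begin 92 and 91 bases before the start. For Nfkb2 (chr19:46304487-46304736, plus strand, the first of its promoters in the table) matches begin 39, 38 and 11 bases before it. Tnfaip3 (chr10:19015411-19015660, minus strand, the first of its promoters) has matches that begin 125 and 12 bases before it. The match of Bcl3 lies just after its start. A match describes letters in a window and says nothing on whether a factor was bound in these cells.

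Cells were kept with over 1000 and under 7000 genes and under 8% mitochondrial UMIs, which left 3524 of 5566 Tom+ barcodes and 6717 of 11838 Tom- barcodes. Cells with at least 10 UMIs of the mesothelial genes Msln, Upk3b, Krt19, Lrrn4 and Upk1b were called mesothelial (250 Tom+ and 1887 Tom-), cells with under 5 were called stromal (3263 and 4800), and 11 and 30 cells between were left out. Krt8, a mesothelial keratin outside the rule, was at 1.62 and 3.16 UMIs per 1000000 UMIs (CPM) in Tom+ and Tom- stromal cells and at 353 and 398 CPM in mesothelial cells. Pdgfra, a receptor of adipocyte progenitors, was at 344 and 282 CPM in stromal and 41.9 and 51.4 CPM in mesothelial cells. The 7 mesothelial genes outside the rule summed to 176 and 279 CPM in stromal and 2406 and 2541 CPM in mesothelial cells. Of these, Wt1 was at 170 and 263 CPM in stromal cells, and Cdh1 at 1.13 and 0.25 CPM in mesothelial cells. The 9 stromal genes summed to 43299 and 50154 CPM against 14149 and 16487 CPM. Dpp4 among them went the other way, at 60.7 and 50.7 CPM in stromal and 278 and 265 CPM in mesothelial cells. Immunoglobulin RNA took 6.06% of Tom+ and 1.59% of Tom- stromal UMIs, concentrated in 136 and 54 cells above 5%. Summed RNA of 6 other immune genes (Ptprc, Lyz2, Adgre1, Cd3e, Cd52 and Tyrobp) was 176 and 52.5 CPM in stromal cells and 342 and 14.3 CPM in mesothelial cells, although CD45+ cells had been gated out. The libraries share 2224 barcodes, and 404 of the Tom+ stromal and 100 of the Tom+ mesothelial cells carried one, against 75 and 207 in the Tom- library. Median depth was 14235 and 11270 UMIs per stromal cell and 18602 and 14753 per mesothelial cell. All intervals are at 95% and cover counting error only, being exact Poisson intervals for CPM and Clopper-Pearson intervals for shares and for ratios of counts. These 3′ UMI counts are not scaled for gene length, so levels are compared between cells for a given gene and not between genes.

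Among stromal cells, RNA of 10 of the 10 members was lower in the Tom+ than in the Tom- library. Nfkb1, Rel and Bcl3 were lower by at least 1.5-fold, the size used here to call a difference, while among the 9778 genes whose mean level reached 5 CPM, 3.25% were lower and 3.86% higher by as much. The median log2 ratio of the members was -0.40, against 0.071 for all of these genes. All 10 members passed the limit of 5 CPM in each of the 4 comparisons. Summed over the members, RNA stood at 1539 CPM in Tom+ against 2206 CPM in Tom- stromal cells. These values are of sorted libraries, and 2329 of the Tom+ stromal cells held no tdTomato UMI. By tdTomato UMIs within the Tom+ library the members did not keep this order, as described further on.

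The largest difference was that of Nfkb1, the gene of p105 and its product p50 (ENSMUSG00000028163, chromosome 3 from 135584655 to 135691547 of GRCm38). It was at 319 CPM (interval 314 to 324) in Tom+ and 625 CPM (interval 619 to 632) in Tom- stromal cells, from 16320 and 36202 UMIs. The Tom- level was 1.96-fold the Tom+ level, a log2 difference of -0.97 (interval -0.996 to -0.943), and 1.05% of all genes tested had a lower value. Rel, the gene of c-Rel (ENSMUSG00000020275, chromosome 11 from 23736847 to 23770970), was at 22.8 CPM (interval 21.5 to 24.2) in Tom+ and 34.5 CPM (interval 33.0 to 36.1) in Tom- stromal cells. It was thus 1.51-fold higher in Tom- cells, a log2 difference of -0.60 (interval -0.70 to -0.49). Relb, a factor of the non-canonical branch (chromosome 7 from 19606217 to 19629438), was at 33.8 and 46.1 CPM in Tom+ and Tom- stromal cells, a log2 difference of -0.45 (interval -0.54 to -0.36). Its partner gene Nfkb2, which encodes p100 and p52 (chromosome 19 from 46304320 to 46312385), was at 26.2 and 34.7 CPM, a log2 difference of -0.40 (interval -0.50 to -0.30). Rela, the gene of the activating subunit p65 (chromosome 19 from 5637483 to 5648130), was at 54.0 and 68.0 CPM, a log2 difference of -0.33 (interval -0.40 to -0.26). Among the factors the difference was thus widest for Nfkb1 and narrowest for Rela, and none of the 5 intervals reached 0.

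The genes of the IκB family were lower in Tom+ stromal cells as well. Bcl3, a nuclear IκB protein that binds p50 and p52 (ENSMUSG00000053175, chromosome 7 from 19808462 to 19822770), was at 38.2 CPM (interval 36.5 to 39.9) in Tom+ and 61.5 CPM (interval 59.5 to 63.6) in Tom- stromal cells. Its Tom- level was 1.61-fold higher, a log2 difference of -0.69 (interval -0.77 to -0.61). Nfkbia, the gene of IκBα (ENSMUSG00000021025, chromosome 12 from 55489410 to 55492647), was at 569 CPM (interval 563 to 576) in Tom+ and 755 CPM (interval 748 to 762) in Tom- stromal cells. The log2 difference was -0.41 (interval -0.43 to -0.39), and 6.46% of all genes tested had a lower value. Nfkbiz, the gene of the nuclear protein IκBζ (chromosome 16 from 55811375 to 55838899), was at 313 and 393 CPM, a log2 difference of -0.33 (interval -0.36 to -0.30). The feedback regulators differed least. Tnfaip3, the gene of the ubiquitin-editing enzyme A20 (chromosome 10 from 19000910 to 19015657), was at 62.3 and 75.7 CPM, a log2 difference of -0.28 (interval -0.35 to -0.21). Birc3, the gene of the ubiquitin ligase cIAP2 (chromosome 9 from 7848699 to 7873186), was at 99.3 and 112.5 CPM, a log2 difference of -0.18 (interval -0.23 to -0.13).

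**Figure D1:**
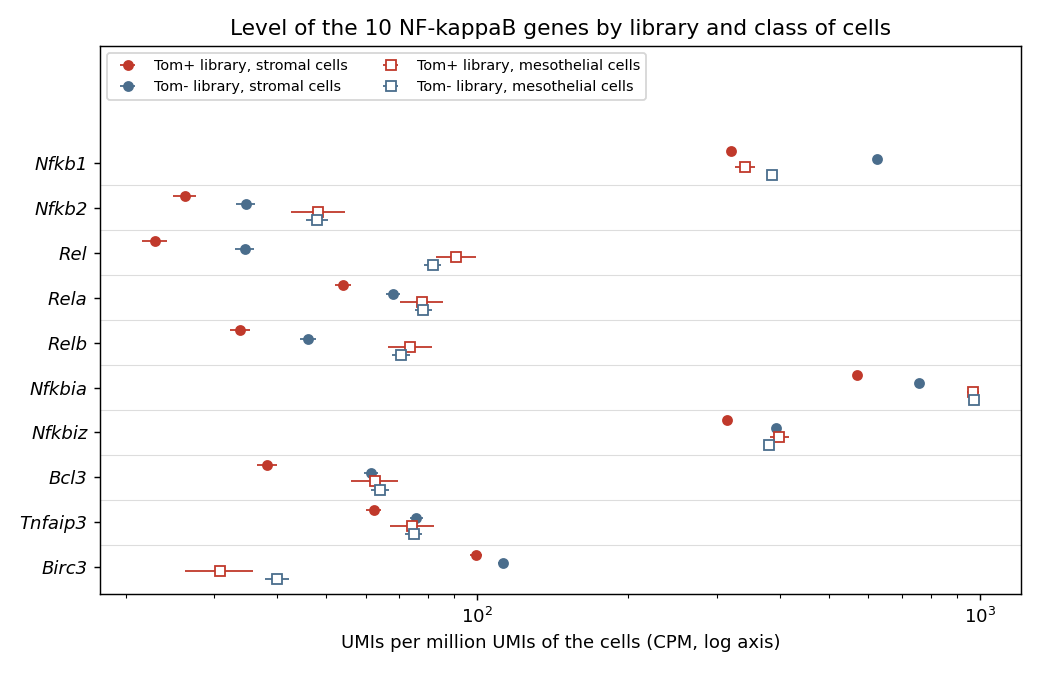
RNA level of the 10 members on a log axis in CPM, with exact Poisson 95% intervals for counting error, in stromal cells (filled circles) and mesothelial cells (open squares) of the Tom+ (red) and Tom- (blue) libraries. The red circle lies left of the blue circle for each of the 10 genes, and Birc3 is the gene whose squares lie left of both circles.

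The same contrast in mesothelial cells gave values closer to 0 for 9 of the 10 members, Birc3 being the exception. Of the 10 members, 4 were higher and 6 lower in Tom+ mesothelial cells, and 0 passed 1.5-fold in either direction, against 1.87% of 10014 genes higher and 1.16% lower. The median log2 ratio of the members was -0.0098, against 0.032 for all genes tested. Nfkb1 was at 341 CPM (interval 326 to 357) in Tom+ and 386 CPM (interval 379 to 393) in Tom- mesothelial cells, a log2 difference of -0.18 (interval -0.25 to -0.11). Rel was at 90.9 CPM (interval 83.0 to 99.4) and 81.6 CPM (interval 78.5 to 84.8), a log2 difference of 0.16 (interval 0.013 to 0.30). Nfkbia differed little, with 968 CPM (interval 941 to 994) and 974 CPM (interval 964 to 985), a log2 difference of -0.010 (interval -0.053 to 0.032). The widest gap was that of Birc3, at 30.8 and 40.0 CPM, a log2 difference of -0.38 (interval -0.62 to -0.14). The intervals of Nfkb2, Rela, Relb, Nfkbia, Bcl3 and Tnfaip3 included 0. Without the barcodes that both libraries list, which left 150 Tom+ and 1680 Tom- mesothelial cells, the Birc3 ratio was -0.057 and the median of the members 0.064. In stromal cells the median without these barcodes was -0.41, with 10 of 10 members lower. Whether the contrast differed between stromal and mesothelial cells was not tested.

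**Figure D2:**
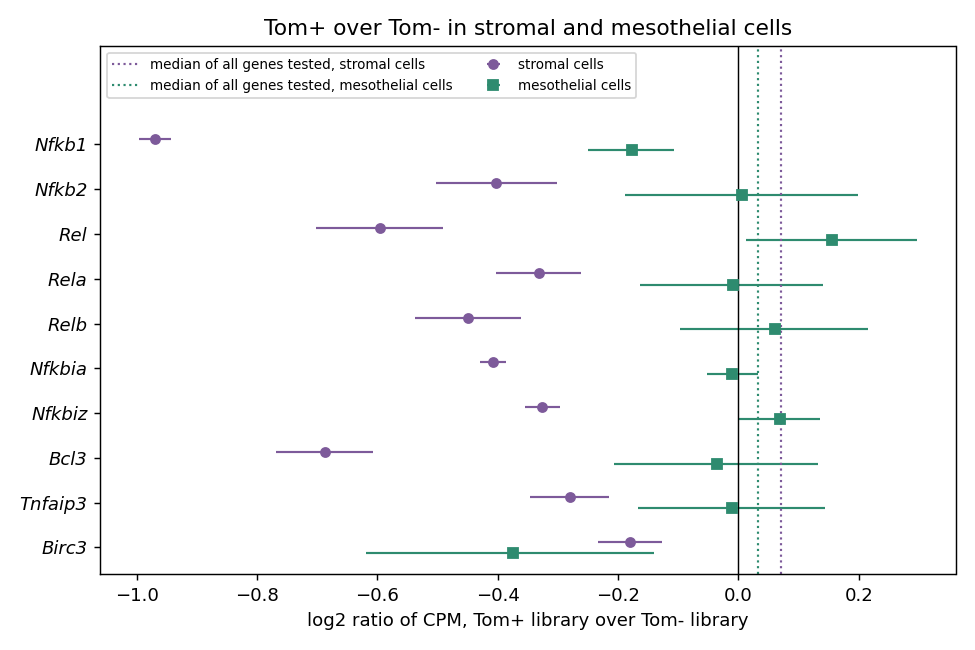
Log2 ratio of CPM, Tom+ library over Tom- library, for the 10 members in stromal (circles) and mesothelial cells (squares), with exact 95% intervals for counting error. Dotted lines mark the median of all genes tested (0.071 in stromal and 0.032 in mesothelial cells). The 10 stromal values lie between -0.97 and -0.18, and the mesothelial values between -0.38 and 0.16.

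The value of Rel lay just past the limit, and it fell short of it, with Nfkb1 and Bcl3 still past it, at -0.42 with the 11 ranges of stromal cells described further on weighted equally, -0.51 with every cell weighted equally, -0.56 with cells under 5% mitochondrial UMIs and -0.56 with stricter class limits (at least 20 UMIs for mesothelial and under 2 for stromal cells). Without the barcodes of both libraries Rel passed and Bcl3, at -0.57, did not. Leaving out the immunoglobulin-rich cells gave a median of -0.39 in stromal cells, with log2 ratios of -0.91 for Nfkb1, -0.67 for Rel and -0.64 for Bcl3. Leaving out cells with at least 5 UMIs of Lyz2, Adgre1, Tyrobp and Ptprc gave -0.41. With stromal cells limited to those with a Pdgfra UMI and no UMI of Ptprc, Cd79a or Jchain (2201 Tom+ and 3522 Tom-), the median was -0.38. The number of members lower in Tom+ cells was 10 of 10 in each of these.

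Genes upstream and downstream of the factors were read from lists chosen for their place in the pathway, with earlier results of these data known. Their counts are therefore a description. A list gene counted as measured at a mean of at least 5 CPM over the groups compared. Of 24 measured kinases and adaptors, 18 were higher and 6 lower in Tom+ stromal cells, or 16 and 8 relative to the median gene, and their median log2 ratio was 0.19. The 1 that passed 1.5-fold was Tab3, at 6.97 and 4.39 CPM, against 3.86% of all genes higher by as much. Tab2, an adaptor of the TAK1 kinase, was at 64.5 CPM in Tom+ against 49.3 CPM in Tom- stromal cells, a log2 difference of 0.39, and Ikbkb, the gene of the catalytic subunit IKKβ, was at 29.4 and 23.0 CPM, a log2 difference of 0.36. Myd88, an adaptor of interleukin 1 and Toll-like receptors, was at 31.6 and 39.8 CPM, a log2 difference of -0.33. The median of this list lay above, and that of the members below, the median of all genes. Of 9 measured receptors, 3 were higher and 6 lower, or 1 and 8 relative to the median gene, and 0 passed 1.5-fold. Tnfrsf12a was at 117 and 169 CPM, Tnfrsf1a at 165 and 231 CPM, and Ltbr, slightly higher in Tom+ cells, at 41.6 and 40.7 CPM. Ligands were few at this limit, with 3 of 10 measured, and 3 of these were lower in Tom+ stromal cells. Below the limit, ligands went both ways in stromal cells. Tnf was higher in Tom+ cells, at 3.85 and 2.75 CPM, a log2 difference of 0.49 (interval 0.18 to 0.80). Il1b was lower, at 0.72 and 1.83 CPM. Il33, an alarmin of the interleukin 1 family, was at 18.7 and 54.4 CPM, a log2 difference of -1.54 (interval -1.65 to -1.44). Of the 10 other inhibitors measured, 7 were higher, or 6 relative to the median gene, and 0 passed 1.5-fold, with N4bp1 at 27.1 and 20.3 CPM and Zc3h12a at 23.6 and 32.7 CPM.

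Targets that NF-κB is known to induce were lower with the members. Of 26 measured, 24 were lower in Tom+ stromal cells, 14 of them by at least 1.5-fold, and 1 was higher by as much. Of all genes, 3.25% were lower and 3.86% higher by this fold. As the list was chosen with earlier results of these data known, its count is no independent check on the members. The median log2 ratio of the targets was -0.66. The neutrophil chemokine Cxcl2 was at 55.7 CPM in Tom+ against 177 CPM in Tom- stromal cells, a log2 difference of -1.67 (interval -1.73 to -1.61). Lcn2, a siderophore-binding protein of the acute phase, was at 38.5 and 111 CPM, a log2 difference of -1.53. Mmp3, a matrix metalloproteinase, went the other way, at 110 and 72.5 CPM, a log2 difference of 0.60, and Csf1 was at 139 and 146 CPM, a log2 difference of -0.073. In mesothelial cells 16 of 24 measured targets were lower, 3 of them by 1.5-fold, and 3 were higher by as much, with a median of -0.16. Of all genes, 1.16% were lower and 1.87% higher by this fold in mesothelial cells. The 3 targets higher by this fold were Cxcl2, Cxcl5 and Mmp9, and the 3 lower ones Cxcl1, Il6 and Ptx3. Mmp9 was at 12.6 CPM in Tom+ against 0.22 CPM in Tom- mesothelial cells, in the libraries where Lyz2 was at 275 and 10.8 CPM. The ligand Tnf was at 11.5 and 0.093 CPM in the same cells, from 61 and 3 UMIs. The part of macrophage RNA in these values was not tested.

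Tissue digestion is known to raise immediate-early genes, so 22 immediate-early and heat-shock genes were read beside the members. They took 3.87% of Tom+ and 4.68% of Tom- stromal UMIs, and 19 of 22 were lower in Tom+ stromal cells, with a median log2 ratio of -0.28. The 3 that passed 1.5-fold were Socs3, Hspa1a and Nr4a1, all lower, against 3.25% of all genes lower by as much. Cells of both classes were therefore divided into tertiles by this share, at 3.72% and 4.98% of UMIs. Of Tom+ stromal cells, 39.6% fell in the lowest and 25.1% in the highest tertile, against 24.5% and 44.1% of Tom- stromal cells. Within the lowest tertile the median log2 ratio of the members in stromal cells was -0.54, within the middle tertile -0.50 and within the highest tertile -0.24. The ratio of Nfkb1 was -1.30 in the lowest and -0.62 in the highest tertile. In the highest tertile 8 of 10 members were lower, Nfkb1 alone by 1.5-fold, and Tnfaip3 (0.27) and Birc3 (0.12) were higher in Tom+ cells. No share of all genes past this fold is given within tertiles. Members also differed in how they went with immediate-early RNA. In Tom- stromal cells Nfkb1 was at 852 CPM in the lowest and 375 CPM in the highest tertile, and Rel at 50.0 and 22.3 CPM. Nfkbiz went the other way, from 340 to 434 CPM. In Tom+ stromal cells the same tertiles held Nfkb1 at 347 and 244 CPM and Nfkbiz at 251 and 420 CPM. Nfkbia in stromal cells was at 580 and 606 CPM in the lowest and highest tertile of the Tom+ library and at 821.5 and 683 CPM in the Tom- library. In mesothelial cells Nfkbia was at 847 and 1205 CPM in the Tom+ and 857 and 1162 CPM in the Tom- library.

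Within a library, both classes of cells share a preparation. In the Tom+ library 9 members were higher and 1 lower in mesothelial than in stromal cells, 5 of them (Nfkb2, Rel, Relb, Nfkbia and Bcl3) higher and Birc3 lower by at least 1.5-fold. Among 10240 genes 22.6% were higher and 16.2% lower by as much, and the median log2 ratio was 0.62 for the members and 0.11 for all genes. In the Tom- library 6 were higher and 4 lower, Rel and Relb higher and Nfkb1 and Birc3 lower by 1.5-fold, against 21.0% of 10019 genes higher and 13.9% lower. Here the medians were 0.13 and 0.14. In both libraries 6 members were higher and 1 lower in mesothelial cells. Relative to the median gene, 8 members were higher in the Tom+ and 5 in the Tom- library, where Nfkb1 then lay below it in both and Bcl3 below it in the Tom- library.

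Rel had the widest positive ratio of the members in both libraries. It was at 90.9 CPM in mesothelial and 22.8 CPM in stromal cells of the Tom+ library, 3.98-fold higher, a log2 difference of 1.99 (interval 1.84 to 2.15). In the Tom- library it was at 81.6 and 34.5 CPM, 2.36-fold higher, a log2 difference of 1.24 (interval 1.16 to 1.33). Relb followed, at 73.6 and 33.8 CPM in the Tom+ library (log2 1.12, interval 0.96 to 1.28) and 70.6 and 46.1 CPM in the Tom- library (log2 0.61, interval 0.53 to 0.70). Birc3 was lower in mesothelial cells of both libraries by over 1.5-fold. It was at 30.8 and 99.3 CPM in the Tom+ library, a log2 difference of -1.69 (interval -1.92 to -1.46), and at 40.0 and 112.5 CPM in the Tom- library, a log2 difference of -1.49 (interval -1.58 to -1.41). Birc2, the neighbouring gene of the related ligase cIAP1, was at 91.1 and 57.7 CPM in mesothelial and stromal cells of the Tom+ library, the opposite order. Nfkb1 was near equal in the Tom+ library, at 341 and 319 CPM, and lower in mesothelial cells of the Tom- library, at 386 and 625 CPM, a log2 difference of -0.70 (interval -0.73 to -0.67). These ratios share their stromal cells with the Tom+ and Tom- comparison above.

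**Figure D3:**
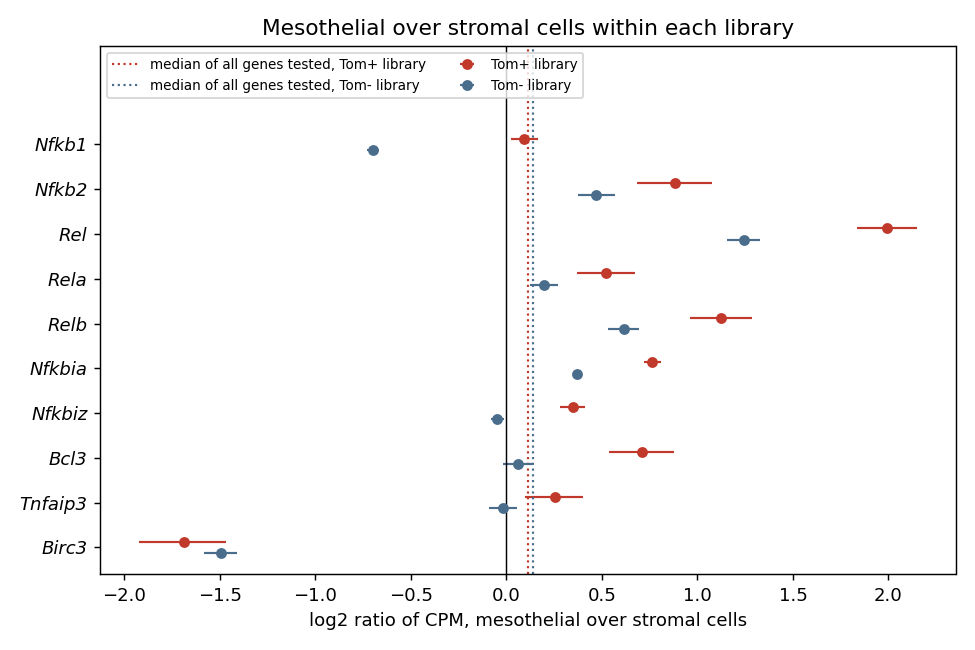
Log2 ratio of CPM, mesothelial over stromal cells, for the 10 members within the Tom+ (red) and Tom- (blue) library, with exact 95% intervals for counting error. Dotted lines mark the median of all genes tested. Rel lies farthest to the right and Birc3 farthest to the left in both libraries.

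Of 9 measured receptors, 4 were higher and 4 lower by 1.5-fold in mesothelial than in stromal cells of the Tom+ library. In the Tom- library 4 were higher and 3 lower. Of all genes, 22.6% were higher and 16.2% lower by as much in the Tom+ library, and 21.0% and 13.9% in the Tom- library. Tnfrsf1b, the gene of TNF receptor 2, was at 64.1 CPM in mesothelial and 17.7 CPM in stromal cells of the Tom+ library, and 61.2 and 19.6 CPM in the Tom- library. Il1r1, the interleukin 1 receptor, was at 44.1 and 98.1 CPM in the Tom+ library and 42.7 and 132 CPM in the Tom- library. Il33 was at 201 and 18.7 CPM in the Tom+ and 211 and 54.4 CPM in the Tom- library. Of the induced targets, Saa3, an acute-phase protein, was at 1788 and 111 CPM in the Tom+ library, and Ptx3, a pattern-recognition protein, at 11.5 and 282 CPM. Among 26 targets measured, 8 were higher and 11 lower in mesothelial cells of the Tom+ library by 1.5-fold, and 7 and 15 in the Tom- library. The shares of all genes given above for the receptors apply to these counts as well.

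Each cell was then thinned to 7563 UMIs, and shallower cells (271 Tom+ and 647 Tom- stromal, 3 and 99 mesothelial) were left out. A UMI of Nfkbia was found in 83.8% (interval 82.4 to 85.1) of Tom+ and 88.6% (interval 87.6 to 89.5) of Tom- stromal cells, and in 96.0% and 96.0% of mesothelial cells. Rel was detected in 11.9% (interval 10.7 to 13.1) of Tom+ and 17.9% (interval 16.7 to 19.1) of Tom- stromal cells, and in 45.3% (interval 39.0 to 51.8) and 40.7% (interval 38.4 to 43.0) of mesothelial cells. Birc3 was found in 43.7% and 43.4% of stromal cells and in 18.2% and 22.1% of mesothelial cells. For Tnfaip3 the shares in stromal cells were 23.1% (interval 21.6 to 24.6) and 24.2% (interval 22.9 to 25.5), with overlapping intervals. Nfkb1 was found in 65.7% and 72.7% of stromal cells, at a mean of 2.62 and 4.78 UMIs per thinned cell and up to 53 and 75 UMIs in 1 cell. A stromal cell held a UMI of 3.96 members on average in the Tom+ and 4.46 in the Tom- library, and a mesothelial cell 4.91 and 4.88. Without thinning, a Rel UMI was found in 19.8% and 24.6% of stromal cells and 69.2% and 59.7% of mesothelial cells. No class here is known to lack these genes. In barcodes with no more than 1000 genes, 1892 in the Tom+ and 4969 in the Tom- library, Nfkbia was at 588 and 669 CPM, Nfkb1 at 217 and 269 CPM and Rel at 40.7 and 34.4 CPM.

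Stromal cells were not uniform in these genes. Ranges were formed from the top 10% of stromal cells of a library by the summed share of each of 11 small gene sets, with at least 3 UMIs, so a range is a stretch of a score and not a cell type. Ranges held 105 to 327 Tom+ and 81 to 480 Tom- cells, of which 0 to 172 lay within 10% of the limit, and 801 of 3263 Tom+ and 1166 of 4800 Tom- stromal cells were in more than 1 range. In Tom+ cells high in Tnfrsf11b, Has1 and Sfrp4, Nfkb1 was at 802 CPM (interval 776 to 828), and in Tom- cells of that range at 1314 CPM (interval 1285 to 1344). Against the other stromal cells these were log2 ratios of 1.56 and 1.27. The lowest Nfkb1 levels were 217 CPM in the Cd36, Meox2 and Aspn range of the Tom+ library and 293 CPM in the Vtn, Cxcl14 and G0s2 range of the Tom- library. Tnfrsf11b encodes osteoprotegerin, a decoy receptor of the RANK pathway, and Has1 a hyaluronan synthase. Bcl3 and Birc3 were highest in the same range in both libraries, Bcl3 at 80.7 and 121 CPM and Birc3 at 150 and 183 CPM. In the Tom+ library the range of Vdr, Thbd and Adamts9 was close. It held Nfkb1 at 778 CPM (interval 752 to 805), Bcl3 at 79.1 CPM (interval 71.0 to 87.9) and Birc3 at 132 CPM (interval 121 to 143). These intervals overlap those of the Tnfrsf11b range, so the order of these ranges is not resolved there. Rel and Relb were highest instead in the range of Cxcl13, Cpxm2 and Ltbp2, Rel at 44.7 CPM (interval 38.1 to 52.1) in the Tom+ and 64.6 CPM (interval 58.1 to 71.6) in the Tom- library. Rel was at 9.93 CPM (interval 7.30 to 13.2) in the Chchd10, Rab3b and Mmp11 range of the Tom+ library and 15.4 CPM (interval 12.3 to 19.0) in the Vtn, Cxcl14 and G0s2 range of the Tom- library. Rela varied little, with a highest level 1.51-fold its lowest in the Tom+ and 1.55-fold in the Tom- library, where Nfkbiz also had 1.51-fold, and Rela was highest in the interferon range of Ifit1, Ifit3, Isg15 and Rsad2 in both. Birc3 was lowest in both libraries among cells high in Pi16 and Dpp4, genes of early progenitors, at 70.2 and 81.9 CPM.

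**Figure D4:**
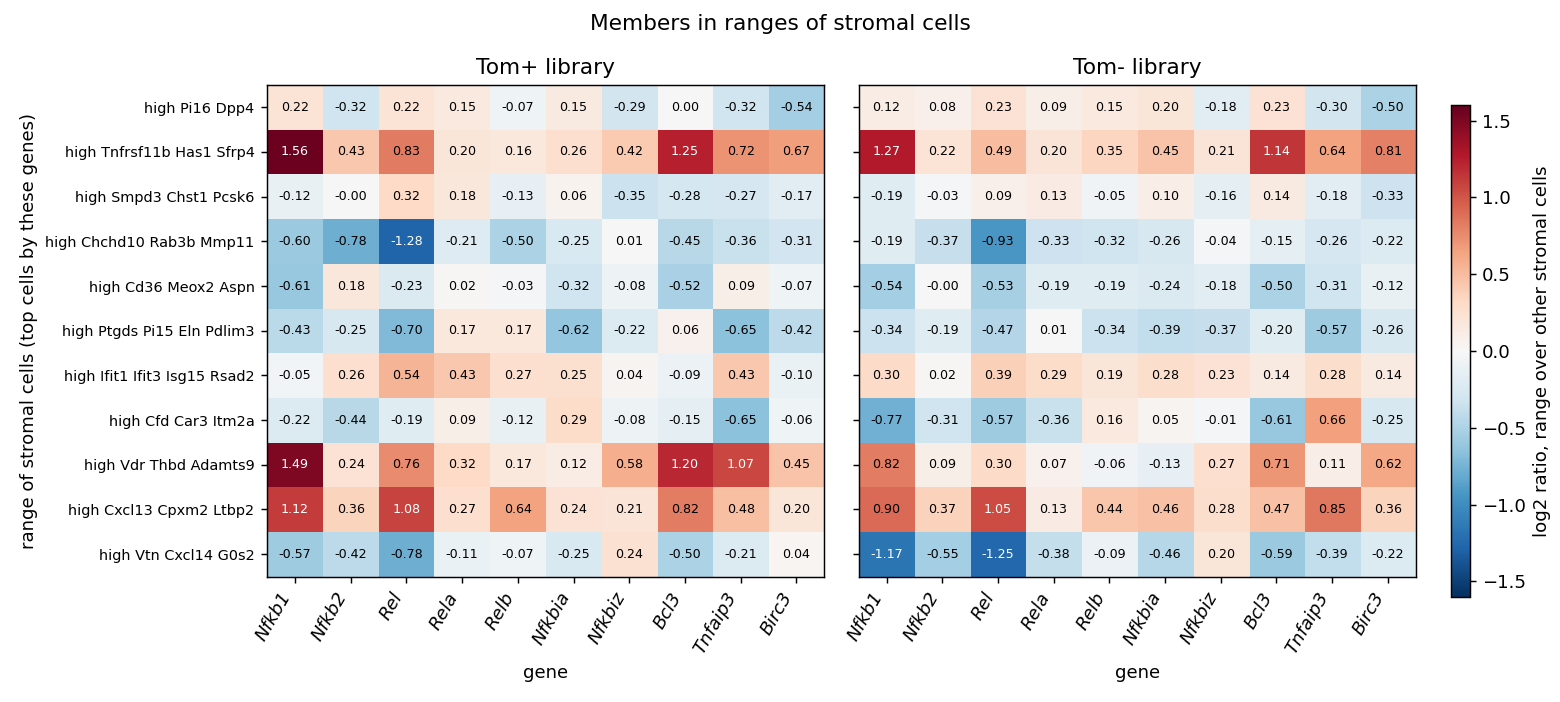
Log2 ratio of CPM, each range of stromal cells over the other stromal cells of its library, for the 10 members (columns) and 11 ranges (rows, named by their genes), printed in each cell. Red marks higher and blue lower values. The rows of Tnfrsf11b, of Vdr and of Cxcl13 are red for Nfkb1, Rel and Bcl3 in both libraries, and the Vtn row is blue for them.

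Within most ranges the members were lower in Tom+ than in Tom- cells. The ranges overlap and are parts of the same stromal cells of the same 2 libraries, so they do not repeat the comparison. Nfkb1, Nfkb2, Rel, Nfkbia, Nfkbiz and Bcl3 were lower in Tom+ cells in 11 of 11 ranges, Rela and Relb in 10, and Tnfaip3 and Birc3 in 9. The Nfkb1 log2 ratio ran from -1.35 in the Chchd10 range to -0.40 in the Vtn range. For Tnfaip3 it ran from -1.56 in the range of Cfd, Car3 and Itm2a to 0.56 in the range of Vdr, Thbd and Adamts9. With the 11 ranges weighted equally the median of the members was -0.40, and 2 of them, Nfkb1 (-0.79) and Bcl3 (-0.60), passed 1.5-fold. No share of all genes is given for this weighting.

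The reporter itself allowed a comparison within 1 preparation. tdTomato RNA was at 211 CPM (interval 207 to 215) in Tom+ and 13.1 CPM (interval 12.2 to 14.1) in Tom- stromal cells, and at 780 and 8.25 CPM in mesothelial cells. In the Tom+ library 330 stromal cells held at least 5 tdTomato UMIs and 2329 held none. Rel was at 42.5 CPM in the former and 18.9 CPM in the latter, a log2 difference of 1.17 (interval 0.97 to 1.37), and was the only member past 1.5-fold. Nfkb1 was at 327 and 326 CPM. The median of the members was -0.012, against -0.73 for all 9685 genes, of which 4.19% were higher and 65.8% lower by 1.5-fold. Immunoglobulin RNA took 37.7% of the UMIs of the cells with tdTomato and 0.12% of those without, and 121 of the 330 cells were immunoglobulin-rich, against 5 of 2329. With a cut of at least 1 tdTomato UMI, 934 Tom+ stromal cells stood against the same 2329. Here 3 members were higher and 7 lower, with a median of -0.045. In the Tom- library this cut set 629 stromal cells against 4171, with 4 members higher, 6 lower and a median of -0.077. Immunoglobulin-rich cells were kept in both, and no median of all genes is given for this cut. The selections that follow use at least 5 UMIs.

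Without the immunoglobulin-rich cells, 209 cells with tdTomato stood against 2324 without, and 9 of 10 members were higher in the cells with tdTomato, 5 of them (Nfkb1, Rel, Relb, Nfkbia and Tnfaip3) by 1.5-fold, against 5.84% of 10011 genes higher and 4.57% lower. The median was 0.58 for the members and -0.054 for all genes. In this selection the macrophage genes Lyz2, Adgre1, Tyrobp and Ptprc summed to 922 CPM in the cells with tdTomato and 142 CPM in those without. The subset with at least 1 Pdgfra UMI and no UMI of Ptprc, Cd79a or Jchain held 128 and 1653 cells. Here 10 of 10 members were higher in the cells with tdTomato and 4 (Nfkb1, Rel, Nfkbia and Tnfaip3) passed 1.5-fold, against 5.02% of 9822 genes higher and 7.94% lower, with medians of 0.56 and -0.074. Nfkb1 was at 697 CPM in the cells with tdTomato and 322 CPM in those without, a log2 difference of 1.11 (interval 1.02 to 1.201). Rel was at 38.5 and 18.7 CPM, a log2 difference of 1.04 (interval 0.65 to 1.42), and Tnfaip3 at 93.4 and 58.0 CPM, a log2 difference of 0.69 (interval 0.44 to 0.92). The intervals of Nfkb2 and Birc3 included 0. Tom- stromal cells of the same kind held Nfkb1 at 627 CPM, Rel at 31.6 CPM and Tnfaip3 at 75.7 CPM. For these genes the Tom- level lay below that of Tom+ cells with tdTomato and above that of Tom+ cells without. Other members did not exceed the Tom- level in cells with tdTomato. These were Nfkbiz at 388 against 398 CPM, Bcl3 at 60.7 against 60.8 CPM and Birc3 at 111 against 112 CPM.

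In the selection without immunoglobulin-rich cells, which neither required a Pdgfra UMI nor left out other immune UMIs, the cells with tdTomato held Rel at 57.0 CPM, Tnfaip3 at 137 CPM and Nfkb1 at 633 CPM. In the narrower selection the cells with tdTomato were shallower, at a median of 12172 UMIs against 13864, and immediate-early RNA took 4.80% of their UMIs against 4.12%. They were in the Vdr, Thbd and Adamts9 range in 24.2% of cases against 9.44%. For the Cxcl13, Cpxm2 and Ltbp2 range the shares were 18.0% and 5.32%. The Vtn, Cxcl14 and G0s2 range held 14.8% and 9.86%. The Tnfrsf11b, Has1 and Sfrp4 range held 11.7% and 10.7%, and the Chchd10, Rab3b and Mmp11 range 4.69% and 11.7%. Against the other stromal cells, Nfkb1, Rel and Bcl3 were higher in the Vdr, Cxcl13 and Tnfrsf11b ranges and lower in the Vtn and Chchd10 ranges. Mesothelial markers outside the rule summed to 307 and 181 CPM, stromal markers to 46587 and 48388 CPM and the 4 macrophage genes to 9.34 and 8.89 CPM. Their part in the result was not tested. In mesothelial cells of the Tom+ library, 144 cells with at least 5 tdTomato UMIs stood against 52 without, with no further selection. Cells with barcodes of both libraries were thus kept. Median depth was 16641 UMIs in the cells with tdTomato and 24467 in those without, and no median of all genes is given here. Of the members 5 were higher and 5 lower, with a median of -0.033. All stromal cells at this cut, also without further selection, had 5 higher, 5 lower and a median of -0.012, against -0.73 for all genes. In these stromal cells 10 of 10 members lay above the median gene.

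**Figure D5:**
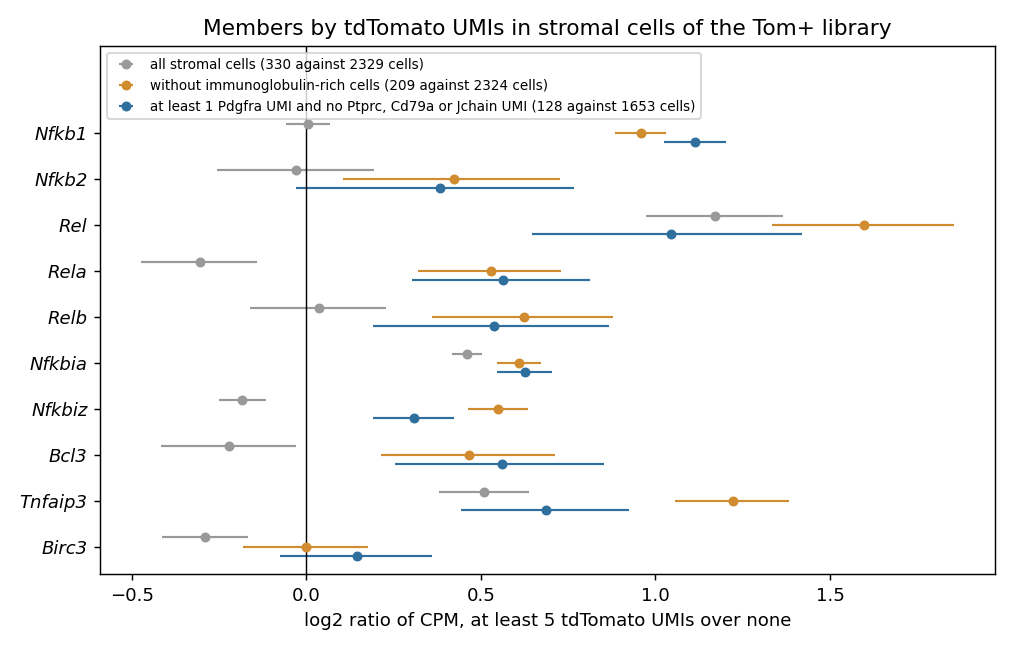
Log2 ratio of CPM, Tom+ stromal cells with at least 5 tdTomato UMIs over those with none, for the 10 members with exact 95% intervals for counting error, in 3 selections of cells. The grey points (all stromal cells) lie on both sides of 0, orange marks the cells that are not immunoglobulin-rich, and the blue points of cells with Pdgfra and without immune UMIs lie to the right of it.

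Across single stromal cells, the genes whose level went most closely with the sum of the members were Cxcl1, Ccl2, Ccl7, Kdm6b and Ifrd1, over 5453 genes in 3263 Tom+ and 4800 Tom- cells. Pearson's r of log levels was 0.59 and 0.60 for Cxcl1, 0.49 and 0.50 for Ccl2 and 0.49 and 0.48 for Ccl7 in the Tom+ and Tom- library. With Nfkbia alone the closest 5 were Cxcl1 (0.44 and 0.46), Ccl2, Ccl7, Ifrd1 and Kdm6b. Among pairs of members, ranked by the lower r of both libraries, Nfkbia and Tnfaip3 came first, with r of 0.38 and 0.35. Nfkb1 and Nfkbia followed with 0.32 and 0.38 and were the closest pair in the Tom- library. These cells share a library and its depth, and the values are a description.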

How the data were processed

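Sorted CD31- CD45- Tom+ and Tom- cells of gWAT were captured in 1 droplet library each with a 3′ kit. The authors deposited unnormalized UMI counts per gene and barcode, made with Cell Ranger 3.0.2 on mm10 per the submitters' processing notes. Libraries held 61119807 (Tom+) and 96872394 (Tom-) UMIs. Cells were filtered and classed by the stated rule, without a doublet caller; cells with 5 to 9 UMIs of the mesothelial genes were left out. UMIs were summed per library and class and scaled to CPM. Members, lists and gene sets were chosen with earlier results of these data known. All 10 members were named, and from each list at most 2 genes each way, those with the most extreme values at 20 CPM or more on average; the genes closest to the members were the 5 with the highest lower r of both libraries. Any other list gene was named after its values were seen. Coordinates are from GENCODE on GRCm38. Python 3.11.15 with numpy 2.4.6, pandas 2.3.3, scipy 1.17.1 and matplotlib 3.10.9 was used. The ratio and its interval were tested on counts simulated with counting error alone. Spread between cells or preparations was not part of this simulation. Alternatives changed scaling, filters, class limits, depth, shared barcodes and immediate-early RNA; the selections without immunoglobulin-rich or macrophage-gene cells and those within the tdTomato comparison were added after seeing the data.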

Additional observations from a re-analysis of the deposited data

Results flagged for a closer look

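Rel differed in opposite directions between the libraries in the 2 classes of cells. Its log2 ratio of Tom+ over Tom- was -0.60 in stromal and 0.16 in mesothelial cells, and neither counting interval included 0. Nfkbiz did the same, with -0.33 in stromal and 0.068 in mesothelial cells. The difference between the classes was not tested, since each class has 1 library per group. Over 14 alternatives the mesothelial ratio of Rel ran from 0.036 in the lowest tertile of immediate-early RNA to 0.28 without the barcodes that both libraries list. That of Nfkbiz ran from 0.028 to 0.22 and was 0.043 without these barcodes. The Nfkbiz ratio of 0.068 had a counting interval of 0.0013 to 0.13 and lay 0.036 above the median gene.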

How the results depend on the processing

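No paired analysis was possible because each group has 1 library, and no replicate could be left out. No ratio of a member past 1.5-fold changed sign under the alternatives run. The median log2 ratio of the members in stromal cells, Tom+ over Tom-, was -0.40 and moved to -0.48 with median-of-ratios scaling and to -0.54, -0.50 and -0.24 within the lowest, middle and highest tertile of immediate-early RNA. At a fold of 2 in place of 1.5, 0 members in place of 3 passed, and 1 passed 1.5-fold in the highest tertile. In mesothelial cells this median was -0.0098 and moved to 0.21 in the highest tertile, which held 39 Tom+ cells. Mesothelial over stromal, the median in the Tom+ library was 0.62 and moved to 0.45 with cells thinned to 1 depth, and 3 in place of 6 members passed a fold of 2. In the Tom- library it was 0.13 and moved to -0.0086 with median-of-ratios scaling, 0.050 in the middle tertile and 0.24 in the highest tertile, and 2 in place of 4 members passed. Shares of all genes are given at 1.5-fold only, for the 4 main comparisons and the tdTomato selections. Counts of members at a fold of 2 or under the other alternatives therefore have no such share beside them. The median by tdTomato UMIs was -0.012 and moved to 0.58 without immunoglobulin-rich cells, 0.56 in cells with Pdgfra and no immune UMIs and 0.55 without the barcodes that both libraries list. Of the 5 alternatives, 2 kept its negative sign. These left out cells with macrophage-gene UMIs, which gave -0.038, or cells with any UMI of the rule genes. The median of all genes was -0.73 in all stromal cells, -0.054 without immunoglobulin-rich cells and -0.074 in cells with Pdgfra and no immune UMIs. In each of these, 10 of 10 members lay above the median gene. The causes were not tested. Depth limits values from few UMIs, such as 164 for Birc3 in Tom+ mesothelial cells and 59 for Nfkb2 and 66 for Rel in the 128 Pdgfra cells with tdTomato.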
